A study of Mus musculus with 25 samples.

Results

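The 42 genes described here are interferon-stimulated genes, chosen by name from the 47729 genes of the bulk RNA-seq table and the 31053 features of the single-cell matrices. The list was drawn up with earlier results of these data known, and which values entered the choice is not recorded. All levels and differences of the 42 genes are therefore a description, and the adjusted p-values beside them, which come from a fit across all genes tested, are not independent support for the list. RNA was measured in Lin- lung cells, from which blood, endothelial and epithelial cells are sorted out by CD45, CD31 and CD326.

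All mice carried Col1a1-Cre-ERT2, a tamoxifen-activated Cre recombinase under the promoter of a collagen gene, and Fas alleles flanked by loxP sites (Fas fl/fl). Fas is a death receptor, and the study asked how its loss from collagen-expressing cells changes the course of lung fibrosis after intratracheal bleomycin. The 20 bulk libraries fall into 5 groups of 4: naive mice, Fas+/+ mice (bleomycin and corn oil) at 3 and 6 weeks, and Fas-/- mice (bleomycin and tamoxifen) at 3 and 6 weeks. Genotype and tamoxifen thus cannot be told apart. The 5 single-cell libraries are 1 for each of these conditions, each from a pool of 4 mice. Per the study's methods, replicates are individual animals. The ages of the mice were not given in the sources used here.

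Type I interferons bind the receptor formed by Ifnar1 and Ifnar2, and its kinases Jak1 and Tyk2 phosphorylate STAT factors such as Stat2. These join Irf9, and the complex binds the interferon-stimulated response element (ISRE) in the promoters of genes such as Isg15. Interferon-gamma acts through its own receptor and another element, GAS. The products sense viral nucleic acids, degrade or sequester viral RNA, hold back virus entry and release, and feed back on the pathway itself, as Irf7 and Usp18 do.

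The response element can be read in the promoters of the members. RefSeq promoters of the build GRCm38.p6, from 250 bases before to 50 bases after a gene's start, were matched for 32 of the 42 members. The ISRE letters, GAAA, any 2 bases and GAAA again, searched on both strands, were in 18 of these 32 (56.2%), against 3.99% of 27025 genes. The GAS letters TTCNNNGAA were in 7 (21.9%), against 9.55% of all genes. The windows below hold the ISRE letters of 7 members, in capitals, with 20 bases on each side. They are cut off at the gene's start where it came sooner, as in Oas1a. They are shown because Gbp3, Ifit3 and Stat2 passed the test between genotypes at 3 weeks, because Isg15, Ifit1 and Oas1a are among the members most raised after bleomycin, and because Bst2 was among the most counted members in single cells. Isg15 lies at chr4:156200855-156200916 (minus strand), Gbp3 at chr3:142559979-142560034 (plus), Ifit3 at chr19:34583353-34583436 (plus), Stat2 at chr10:128270256-128270305 (plus), Ifit1 at chr19:34640765-34640833 (plus), Oas1a at chr5:120907526-120907565 (minus) and Bst2 at chr8:71537567-71537622 (minus).
Isg15: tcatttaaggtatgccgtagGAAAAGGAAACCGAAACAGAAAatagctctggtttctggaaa
Gbp3: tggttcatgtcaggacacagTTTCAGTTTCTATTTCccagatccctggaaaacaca
Ifit3: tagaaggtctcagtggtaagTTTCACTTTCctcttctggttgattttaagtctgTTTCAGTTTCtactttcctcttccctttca
Stat2: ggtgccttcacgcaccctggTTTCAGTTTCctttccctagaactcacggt
Ifit1: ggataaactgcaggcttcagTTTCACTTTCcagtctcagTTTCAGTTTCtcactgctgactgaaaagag
Oas1a: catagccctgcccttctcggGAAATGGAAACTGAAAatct
Bst2: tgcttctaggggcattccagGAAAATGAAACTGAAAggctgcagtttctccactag

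In Isg15, Gbp3, Oas1a and Bst2 the capitals are overlapping matches, and in Ifit1 and Ifit3 they are separate matches. The window of Ifit3b (chr19:34607749-34607832, plus strand) was identical to that of Ifit3 over its 84 bases. Ifit3 and Ifit3b are near-identical copies, so the division of reads between them is uncertain. A match is a description of these letters only, and no match in a window, as for Irf7 and Oasl2, says nothing about the factor.

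Total counts per bulk library ran from 11819700 to 25189096, and 15773 genes passed the filter on low counts. Levels are given as CPM, counts scaled to library size after TMM normalization, and differences as log2 fold changes from edgeR. A gene is said to have risen or fallen at an adjusted p of 0.05 or less (quasi-likelihood F test, Benjamini-Hochberg). The fibroblast gene Col1a1 was at 3025 CPM or more in every library and the markers of the sort, Ptprc and Epcam, at 4.37 and 5.17 CPM or less, but Pecam1, which encodes CD31, ran from 9.29 to 1626 CPM. All 10 endothelial markers were present, and their summed level was 377 to 628 CPM in the naive group, 2644 to 9834 CPM in Fas+/+ and 846 to 8727 CPM in 3-week Fas-/- mice, and 685 to 2046 CPM in Fas+/+ and 300 to 2994 CPM in 6-week Fas-/- mice. In bulk RNA, fewer cells of a type and less RNA per cell cannot be told apart. Whole-gene counts of Fas do not check its deletion, because the exon removed is not counted separately.

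The members lie on 15 chromosomes of GRCm38, and 15 of them lie in 5 clusters whose neighbours are within 200000 bases. The clusters are Rsad2 and Cmpk2 on chromosome 12, Parp14, Dtx3l and Parp9 on chromosome 16, the 4 Ifit genes on chromosome 19, Gbp7, Gbp3 and Gbp2 on chromosome 3, and Oas2, Oas3 and Oas1a on chromosome 5. Another annotated gene overlaps 15 members, on the same strand for 6, among them Irf9 (with Rnf31) and Igtp (with Irgm2). The strand setting of the counting was not given in the sources used here, so reads of such pairs may not be separable. Per kilobase of exon, the mean naive level was highest for Ifitm3, which blocks virus entry at membranes, at 564 CPM per kb. Ifi27l2a followed at 66.3 and the secreted glycoprotein gene Lgals3bp at 63.0 CPM per kb, and the lowest tested member, the oligoadenylate synthetase Oas3, was at 0.116 CPM per kb. Of the 42 members, 41 passed the filter. Epsti1 did not. Ifi44, Oas1a and Oas3 were below 0.497 CPM, the level of the filter's 10 counts in the median library, in a naive library, and the other 38 tested members were above it in all 20 libraries.

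Of the factors that carry the interferon signal, Irf7, which amplifies the response, was counted as follows: it was at 18.95, 19.01, 12.4 and 16.5 CPM in naive mice, at 25.9, 30.2, 34.7 and 30.1 CPM in Fas+/+ and 64.3, 71.9, 61.1 and 61.7 CPM in 3-week Fas-/- mice, and at 19.5, 30.3, 37.8 and 20.1 CPM in Fas+/+ and 21.9, 19.9, 18.6 and 14.6 CPM in 6-week Fas-/- mice. At 3 weeks the 3 groups of libraries did not overlap, with Fas-/- highest, whereas at 6 weeks the Fas-/- libraries overlapped the naive ones. The rise over naive mice was 0.85 (SE 0.189, adjusted p = 0.00181 in edgeR) in Fas+/+ and 1.95 (SE 0.192, adjusted p = 4.11e-06) in Fas-/- mice at 3 weeks.

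Stat2, a subunit of the complex that binds the ISRE, was at 85.5, 69.1, 75.8 and 70.7 CPM in naive mice and at 96.7, 76.7, 73.0 and 75.0 CPM in Fas+/+ mice at 3 weeks. In Fas-/- mice at 3 weeks it was at 116, 127, 129 and 174 CPM, above every naive and Fas+/+ library. At 6 weeks it was at 68.5, 85.4, 106 and 68.9 CPM in Fas+/+ and 65.8, 71.1, 73.7 and 75.0 CPM in Fas-/- mice, and only replicate 3 of Fas+/+ was above the highest naive library. Irf9, its DNA-binding partner, had the same order of groups: 49.1, 40.6, 41.6 and 38.0 CPM in naive mice, 60.2, 48.9, 49.9 and 47.4 CPM in Fas+/+ and 70.3, 70.5, 71.4 and 98.5 CPM in 3-week Fas-/- mice. At 6 weeks Irf9 was at 44.4, 51.9, 61.8 and 44.7 CPM in Fas+/+ and 40.3, 50.4, 45.3 and 43.6 CPM in Fas-/- mice, and both groups overlapped naive mice.

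Isg15, the ubiquitin-like protein that is attached to other proteins in the response, was at 6.12, 4.39, 4.30 and 5.41 CPM in naive mice. At 3 weeks it was at 7.51, 14.4, 15.2 and 13.1 CPM in Fas+/+ and 25.9, 30.2, 22.97 and 22.6 CPM in Fas-/- mice, again with no overlap between the 3 groups. At 6 weeks it was at 4.36, 10.8, 13.2 and 5.39 CPM in Fas+/+ and 8.09, 6.20, 4.57 and 3.64 CPM in Fas-/- mice. Replicates 2 and 3 of Fas+/+ were above all naive libraries, and replicates 1 and 4 were not. Usp18, which removes Isg15 from proteins and dampens the receptor, was at 8.10, 6.63, 4.92 and 5.80 CPM in naive mice, 11.7, 9.96, 11.2 and 10.1 CPM in Fas+/+ and 19.4, 22.2, 19.4 and 27.7 CPM in 3-week Fas-/- mice, and 8.23, 11.5, 12.1 and 8.06 CPM and 9.71, 7.53, 6.60 and 6.10 CPM in the same genotypes at 6 weeks. The 3 groups were separate at 3 weeks, and the Fas-/- libraries overlapped the naive ones at 6 weeks.

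Among the antiviral effectors, the oligoadenylate synthetase Oas1a, whose product activates an RNase, rose most over naive mice. It was at 1.46, 0.958, 0.239 and 1.43 CPM in naive mice, 6.62, 6.35, 7.98 and 4.76 CPM in Fas+/+ and 13.4, 14.8, 9.83 and 15.7 CPM in 3-week Fas-/- mice, and 2.38, 4.88, 6.05 and 3.12 CPM and 5.01, 3.07, 3.10 and 3.39 CPM in Fas+/+ and Fas-/- mice at 6 weeks. Every bleomycin library was above every naive library. Rsad2, which encodes viperin, had another pattern, at 6.93, 8.15, 12.5 and 9.52 CPM in naive mice, 8.39, 8.90, 8.24 and 10.4 CPM in Fas+/+ and 14.8, 13.7, 9.88 and 14.3 CPM in 3-week Fas-/- mice, and 2.95, 7.94, 8.28 and 5.14 CPM and 4.39, 4.15, 1.30 and 1.77 CPM at 6 weeks. The Fas-/- libraries at 6 weeks were all below the naive libraries. Oas3 stayed low, at 0.431, 0.1997, 0.860 and 1.77 CPM in naive mice, 0.393, 1.10, 1.42 and 0.963 CPM in Fas+/+ and 3.12, 2.36, 1.80 and 1.53 CPM in 3-week Fas-/- mice, and 0.484, 1.39, 0.942 and 0.755 CPM and 0.313, 0.410, 0.113 and 0.0983 CPM at 6 weeks. The Fas-/- libraries of Oas3 were above the Fas+/+ libraries at 3 weeks and below them at 6 weeks.

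The most abundant member, Ifitm3, moved little by comparison. It was at 385, 374, 363 and 410 CPM in naive mice, 385, 412, 501 and 467 CPM in Fas+/+ and 595, 620, 534 and 645 CPM in 3-week Fas-/- mice, and 381, 445, 603 and 397 CPM and 362, 360, 367 and 392 CPM at 6 weeks. Only the Fas-/- group at 3 weeks lay wholly above the naive libraries. Of the interferon-inducible GTPases, which act on vacuoles of intracellular pathogens, Gbp3 was at 26.7, 27.5, 25.9 and 23.8 CPM in naive mice, 32.2, 27.3, 23.9 and 29.1 CPM in Fas+/+ and 53.5, 52.2, 50.5 and 60.3 CPM in 3-week Fas-/- mice, and 22.4, 28.8, 42.9 and 25.5 CPM and 30.2, 22.5, 27.2 and 25.4 CPM at 6 weeks. The Fas-/- libraries at 3 weeks stood above all 16 others. Irgm1, a GTPase of autophagy, was at 22.1, 16.3, 14.4 and 19.7 CPM in naive mice, 32.97, 35.0, 38.1 and 31.3 CPM in Fas+/+ and 45.7, 47.4, 40.4 and 45.7 CPM in 3-week Fas-/- mice, and 21.4, 28.1, 35.8 and 28.05 CPM and 26.7, 27.9, 24.7 and 24.98 CPM at 6 weeks. Trim30a, a regulator of sensing, was at 8.31, 5.91, 3.25 and 7.01 CPM in naive mice, 24.8, 19.3, 16.8 and 19.8 CPM in Fas+/+ and 24.6, 25.8, 24.7 and 34.6 CPM in 3-week Fas-/- mice, and 10.7, 19.2, 20.1 and 14.0 CPM and 19.01, 16.4, 12.3 and 11.9 CPM at 6 weeks. Both genes were higher in all bleomycin libraries than in naive ones, but for replicate 1 of Fas+/+ mice at 6 weeks in Irgm1.

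**Figure D1:**
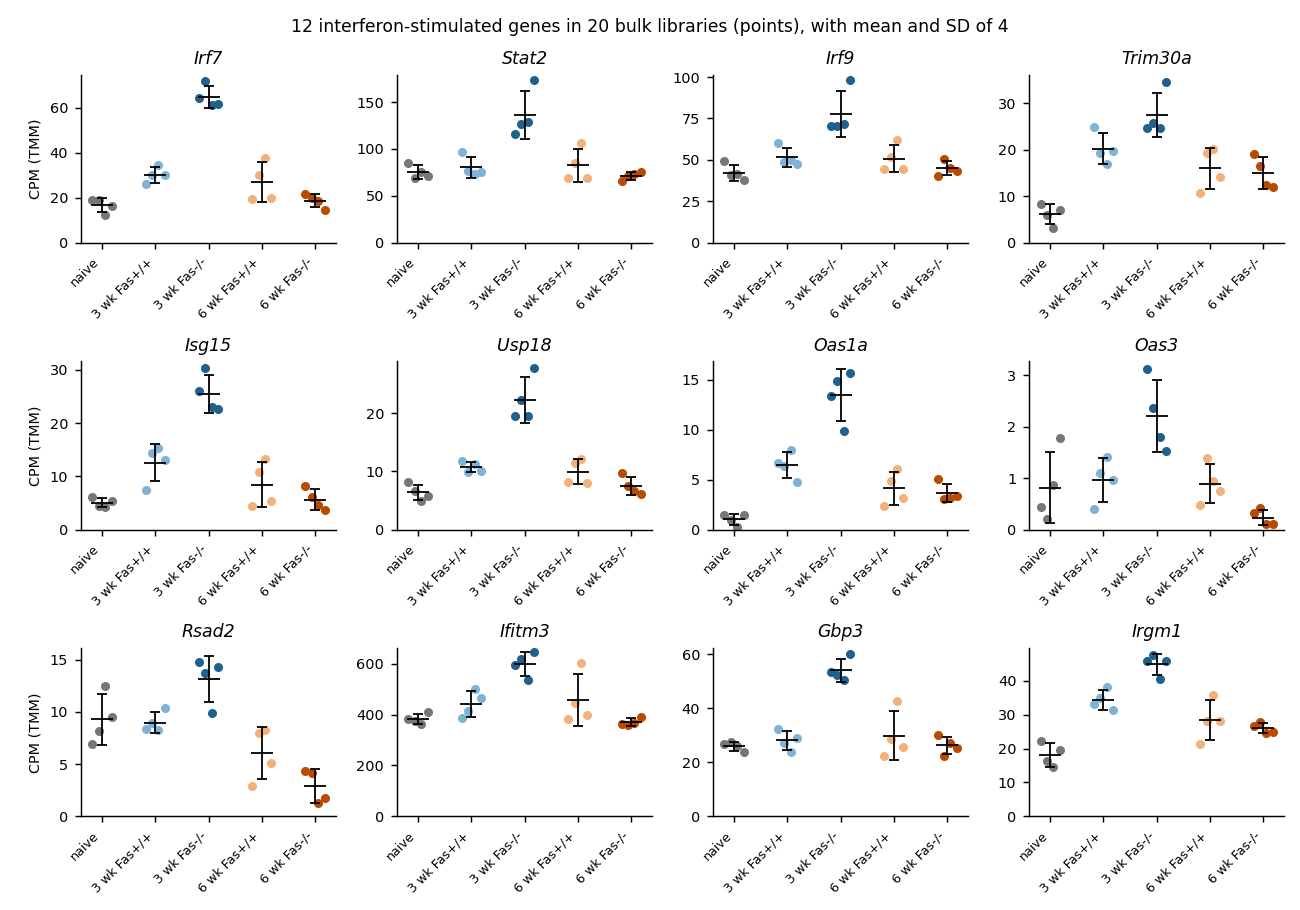
Level of 12 members (CPM, vertical axes) in the 20 bulk libraries, with points for libraries and bars for the mean and SD of the 4 libraries of a group. Irf7, Isg15, Usp18, Oas1a and Irgm1 show 3 separate groups at naive, 3-week Fas+/+ and 3-week Fas-/-, and Oas1a lies above its naive level in all bleomycin groups. The share of all genes with such a separation was not counted. Irf7, Usp18, Oas1a and Irgm1 were picked by smallest p in comparisons of these groups, so their separation is no added support.

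At 3 weeks after bleomycin, 22 of the 41 tested members rose and 1 fell in Fas+/+ mice relative to naive mice, beside 22.1% of all genes tested that rose. In Fas-/- mice 37 rose and 1 fell, beside 17.2% of all genes. The median log2 fold change of the members was 0.54 and 1.21 in these comparisons, and that of all genes 0.011 and 0.020. Both comparisons use the same naive libraries. The member that fell in both was Ifit2, an RNA-binding effector, by 0.73 (SE 0.120, adjusted p = 0.000180 in edgeR) in Fas+/+ and by 0.33 (SE 0.119, adjusted p = 0.0424) in Fas-/- mice.

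By role, 4 of 7 sensors and their regulators rose in Fas+/+ mice (Dhx58, Trim25, Trim30a and Zbp1) and 6 in Fas-/- mice, where Ifi204 did not pass the test. The 3 genes of the PARP and ubiquitin ligase complex, Parp9, Parp14 and Dtx3l, rose in both. Of 14 antiviral effectors, 7 rose in Fas+/+ and 12 in Fas-/- mice. Of the 6 GTPases, Igtp, Iigp1 and Irgm1 rose in Fas+/+ mice, and these with Gbp3 and Gbp7 in Fas-/- mice. The highest fold changes were those of Oas1a, at 2.63 (SE 0.376, adjusted p = 4.97e-05) and 3.70 (SE 0.381, adjusted p = 5.61e-06), of Ifi44, at 2.10 (SE 0.387) and 3.28 (SE 0.394), and of the nucleic acid sensor Zbp1, at 2.13 (SE 0.414) and 3.09 (SE 0.423).

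The markers of other cells also moved with these groups. The summed level of the 10 hematopoietic markers was 4.18 to 9.50 CPM in the naive group, 71.6 to 171 CPM in Fas+/+ and 39.4 to 156 CPM in 3-week Fas-/- mice, and the endothelial markers rose as given above. With the endothelial marker level as a covariate, 8 members rose and 1 fell in Fas+/+ mice at 3 weeks, beside 14.2% of all genes that rose. The member median was then 0.24, and 28 of 41 members were above 0, in place of 37. Of the members that had risen, Parp14 (-0.091, adjusted p = 0.804 in edgeR) and Trim25 (-0.057, adjusted p = 0.789) changed sign with the covariate. The mean log2 CPM of the endothelial markers was 3.95 to 5.25 in naive and 7.67 to 9.50 in these Fas+/+ libraries. These ranges do not overlap, so this fit cannot separate the covariate from the comparison. Summed erythroid markers went the other way, at 2979 to 9590 CPM in naive mice and 235 CPM or less in all bleomycin libraries. The part of blood and red cells in the result was not tested.

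At 3 weeks all 41 tested members had a positive log2 fold change in Fas-/- over Fas+/+ mice, with a median of 0.58 against -0.0024 for all genes, and 7 passed the test, beside 0.165% of all genes. These were Gbp3 (0.94, SE 0.153, adjusted p = 0.0217 in edgeR), Irf7 (1.10, SE 0.188, adjusted p = 0.0226), Usp18 (1.05, SE 0.178, adjusted p = 0.0226), the oligoadenylate synthetase-like gene Oasl2 (1.03, SE 0.178, adjusted p = 0.0226), the RNA-binding effector Ifit3 (1.18, SE 0.209, adjusted p = 0.0237), Stat2 (0.76, SE 0.142, adjusted p = 0.0338) and Ifi27l2a (1.59, SE 0.310, adjusted p = 0.0436). Ifit3 was at 22.3, 32.4, 29.5 and 35.5 CPM in Fas+/+ and 69.3, 73.9, 64.2 and 63.6 CPM in Fas-/- mice. Oasl2 was at 57.0, 56.7, 54.6 and 61.0 CPM in Fas+/+ and 104, 105, 103 and 157 CPM in Fas-/- mice. Ifi27l2a, a small membrane protein gene, was at 18.5, 28.7, 31.1 and 31.7 CPM in Fas+/+ and 92.2, 92.8, 86.1 and 60.1 CPM in Fas-/- mice. In each of these the genotypes did not overlap.

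The 4 Fas-/- libraries were all above the 4 Fas+/+ libraries for 25 of the 41 members, beside 2.49% of all genes. Isg15, at a log2 fold change of 1.02 (SE 0.306, adjusted p = 0.224), and Irf9, at 0.59 (SE 0.129, adjusted p = 0.0697), were among the 25 and did not pass the test. The count of 7 rests on single libraries, and so does the count over all genes. The members called were 0 without replicate 2 or 3 of Fas+/+ mice, beside 0 of 16016 and 0 of 16026 genes. They were 0 without replicate 1 of Fas-/- mice, beside 5 of 16062 genes. Without replicate 3 or 2 of Fas-/- mice they were 3 and 4, beside 8 of 16034 and 20 of 16028 genes. They were 13 without replicate 4 of Fas-/- mice, beside 1.76% of all genes, and 15 without replicate 1 of Fas+/+ mice, beside 1.16%. Leaving out either thus raised the share called over all genes too. Both libraries were the lowest of their groups in markers of profibrotic fibroblasts. The mean log2 CPM of these was 6.00 against 8.84 to 9.17 in Fas+/+ and 6.98 against 8.48 to 8.86 in Fas-/- mice. Both were also the highest of their groups in endothelial markers. The mean log2 CPM of those markers was 7.67 to 8.06 in Fas+/+ mice but for replicate 1, at 9.50, and 5.94 to 6.62 in Fas-/- mice but for replicate 4, at 9.34. With this level as a covariate 14 members passed, beside 0.228% of all genes. Without the library highest in endothelial markers of each bleomycin group 19 passed, beside 3.42% of all genes. When edgeR was fitted to these 2 groups alone 4 passed, beside 0.0335%, and in DESeq2 18, beside 0.888%. All 41 members were above 0 without those libraries, in the fit to 2 groups and in DESeq2, and Ifi204 was below 0 with the covariate (-0.064). The markers of alveolar lipofibroblasts had a mean log2 CPM of 7.97 in Fas+/+ and 8.57 in Fas-/- mice. The part of fibroblast classes in the difference between genotypes was not tested.

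**Figure D2:**
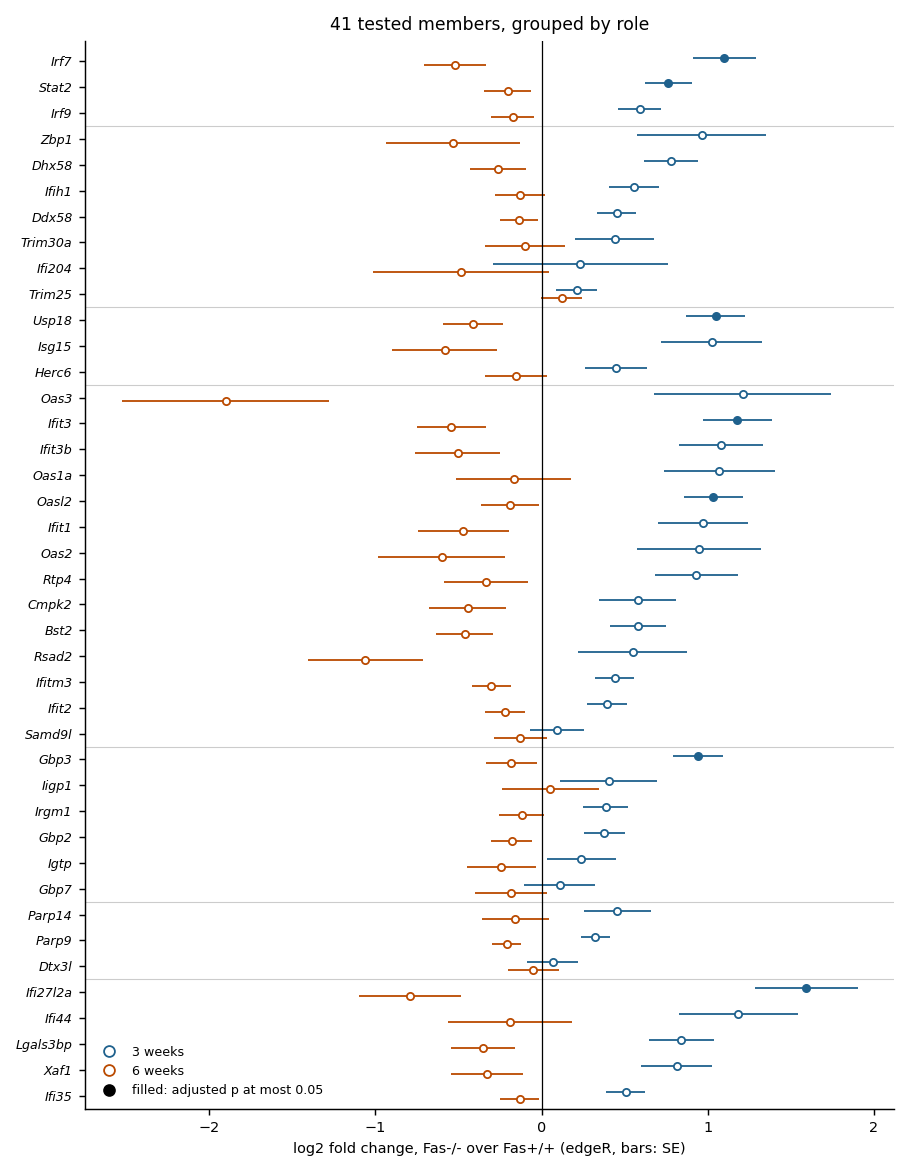
Log2 fold change of Fas-/- over Fas+/+ mice (horizontal axis) for the 41 tested members, grouped by role, at 3 weeks (blue) and 6 weeks (orange), with bars for the standard error and filled points for an adjusted p of 0.05 or less. All 41 points at 3 weeks are above 0, and at 6 weeks 39 of 41 are below it and none is filled.

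At 6 weeks 9 members were still raised in Fas+/+ over naive mice, beside 3.57% of all genes that rose. The median of all 41 tested members was 0.50 against 0.0012 for all genes. The 9 raised members were Irf7 (0.69, SE 0.188, adjusted p = 0.0399 in edgeR), Usp18 (0.64, SE 0.181, adjusted p = 0.0449), Trim30a (1.38, SE 0.250, adjusted p = 0.00278), Oas1a (1.99, SE 0.374, adjusted p = 0.00371), Irgm1 (0.64, SE 0.135, adjusted p = 0.00858), Bst2, Igtp, Parp9 and Samd9l. Bst2, which encodes tetherin and holds budding virus at the cell surface, was raised by 0.71 (SE 0.171, adjusted p = 0.0190). The Fas+/+ libraries were uneven: the mean log2 CPM of the members was 4.08, 4.75, 5.003 and 4.39 in replicates 1 to 4, and 3.71 to 4.27 in naive mice. The count was 18 without replicate 1, beside 4.25% of all genes. It was 3 without replicate 2, without replicate 3 or without naive replicate 3. Over all genes 305 of 16026, 395 of 16050 and 380 of 16014 rose in these fits, against 563 of 15773 in the reported fit. The members that rose were 4 and 5 without naive replicates 2 and 4, beside 409 of 16035 and 463 of 16016 genes. With the endothelial covariate the count was 5, beside 3.85% of all genes, and in DESeq2 16, beside 5.44%. The endothelial level did not overlap here either, at 5.48 to 7.29 in these Fas+/+ libraries and 3.95 to 5.25 in naive mice.

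In Fas-/- mice at 6 weeks, Oas1a (1.82, SE 0.376, adjusted p = 0.00778 in edgeR), Trim30a (1.28, SE 0.250, adjusted p = 0.00540) and Irgm1 (0.52, SE 0.135, adjusted p = 0.0277) were raised over naive mice. Rsad2 fell by 1.67 (SE 0.346, adjusted p = 0.00778) and Ifit2 by 0.49 (SE 0.120, adjusted p = 0.0208). These 5 of 41 members compare with 6.48% of all genes called in either direction, and the member median was 0.15 against 0.010 for all genes. Without replicate 2 or replicate 4 of the Fas-/- mice, 3 members were called, beside 560 of 16052 and 614 of 16042 genes. The Fas-/- libraries had a mean log2 CPM of the members of 4.12 to 4.42, with replicate 2 at 7.83 in endothelial markers and the others at 3.56 to 5.36.

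Between the genotypes at 6 weeks, no member passed the test in edgeR, beside 0.0507% of all genes, or in DESeq2, beside 1.08%. At an unadjusted p of up to 0.05 edgeR had 9 of 41, beside 8.07% of all genes. The log2 fold change was below 0 for 39 of 41 members, with a median of -0.22 against -0.0011 for all genes, and the exceptions were Trim25 (0.12, SE 0.123) and Iigp1 (0.052, SE 0.293). The 4 Fas-/- libraries were all below the Fas+/+ libraries for 1 member, Oas3 (-1.90, SE 0.624, adjusted p = 0.323), beside 3.33% of all genes. Irf7 differed by -0.52 (SE 0.188, adjusted p = 0.398).

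From 3 to 6 weeks, 34 of 41 members fell in Fas-/- mice and none rose, beside 4.54% of all genes that fell. The median was -1.06 against -0.0075 for all genes, and the count was 29 to 33 with any 1 library left out. All 3 signal transducers fell, Irf7 by 1.79 (SE 0.192, adjusted p = 0.000340 in edgeR). So did all 3 genes of the Isg15 system, with Isg15 itself down by 2.18 (SE 0.319, adjusted p = 0.00121), 6 of 7 sensors and 12 of 14 effectors. Of the 6 GTPases, 3 fell (Gbp3, Iigp1 and Irgm1). The steepest fall was that of Oas3, by 3.20 (SE 0.610, adjusted p = 0.00524). Its size rests on very low counts, as Oas3 was at 0.0983 to 0.410 CPM in 6-week Fas-/- mice, below the filter level of 0.497 CPM. The 7 members that did not pass were Dtx3l, Gbp2, Gbp7, Ifi204, Ifit2, Igtp and Samd9l.

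In Fas+/+ mice over the same time, 4 members were called, beside 22.9% of all genes, and the median was -0.10 against -0.0028. Ifi27l2a rose by 0.91 (SE 0.307, adjusted p = 0.0393 in edgeR), Ifit2 by 0.46 (SE 0.120, adjusted p = 0.0111) and Gbp2 by 0.45 (SE 0.124, adjusted p = 0.0142), and Trim25, a ubiquitin ligase of RNA sensing, fell by 0.36 (SE 0.123, adjusted p = 0.0406). Without replicate 3 of the Fas+/+ mice at 6 weeks, 2 members rose and 4 fell, beside 18.4% of all genes called. When edgeR was fitted to these 2 groups alone 1 was called, beside 19.2%. In each of these the share of the members called was below that of all genes.

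The difference between these 2 time courses was tested as a genotype-by-time interaction. All 41 members were below 0, with a median of -1.02 against 0.0061 for all genes, and none passed the test in edgeR, beside 0.00634% of all genes. At an unadjusted p of up to 0.05 edgeR had 33, beside 7.67% of all genes, and DESeq2 called 19 at an adjusted p of up to 0.05, beside 0.634%. The lowest adjusted p was 0.0742, shared by Irf7 (-1.62, SE 0.265), Ifit3 (-1.72, SE 0.294), Usp18 (-1.46, SE 0.254) and Ifi27l2a (-2.38, SE 0.435). Without replicate 1 of the Fas+/+ mice at 3 weeks edgeR called 16, beside 1.01% of all genes. It called 6 without replicate 1 of the 6-week Fas+/+ group, beside 0.0561%, and 11 with the endothelial covariate, beside 0.273%.

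The mean level of the members in a library was set beside that of the endothelial markers. In naive mice the members were at 3.71 to 4.27 (mean log2 CPM), in Fas+/+ mice at 3 weeks at 4.68 to 4.80 and in Fas-/- mice at 3 weeks at 5.28 to 5.56. These 3 groups did not overlap, whereas the endothelial level of Fas-/- replicate 4 lay among those of Fas+/+ mice. The libraries richest in endothelial markers at 3 weeks were also the highest of their groups in the members, at 4.80 in Fas+/+ replicate 1 and 5.56 in Fas-/- replicate 4. At 6 weeks other libraries were, replicate 3 of Fas+/+ and replicate 1 of Fas-/- mice.

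**Figure D3:**
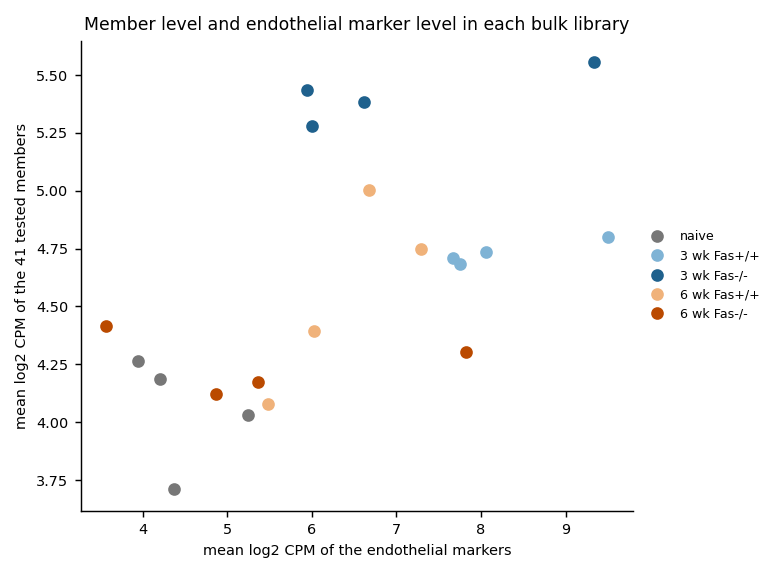
Mean log2 CPM of the 41 tested members (vertical axis) against mean log2 CPM of the endothelial markers (horizontal axis), with 1 point per bulk library, coloured by group. The 4 libraries of Fas-/- mice at 3 weeks are the highest in the members, at 5.28 to 5.56, at endothelial levels from 5.94 to 9.34.

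Other genes of the pathway were taken from a list of 96, of which 78 were tested. The interferons themselves were hardly counted: none of the 12 listed was tested, 8 had 0 counts in all 20 libraries, and the 12 together had 25 counts, of which Ifnz had 10. In the single cells they had 10 UMIs in 12059 cells. At 3 weeks 22.1% of all genes rose in Fas+/+ and 17.2% in Fas-/- mice. In either direction 6517 and 5045 of 15773 genes were called. Beside these, 4 of the 6 receptor subunits rose in Fas+/+ and 3 in Fas-/- mice, among them Ifnar1 in both. Of 10 kinases, STAT and IRF factors, Irf1, Jak2 and Stat3 rose and Irf8 fell in both genotypes at 3 weeks. The inhibitors Socs3 and Ptpn2 rose in both. With so many of all genes called, these few genes are not read as a response of the pathway.

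Of 48 further interferon-stimulated genes tested, at 3 weeks 31 rose in Fas+/+ and 42 in Fas-/- mice, beside the 22.1% and 17.2% of all genes given above. At 6 weeks 8 and 9 rose, beside 3.57% and 3.66%, and none was lower at either time. Slfn2, a Schlafen family gene, had the smallest p among them at 3 weeks, with a change of 3.96 (SE 0.405, adjusted p = 2.23e-06) and 4.45 (SE 0.408, adjusted p = 1.76e-06). From 3 to 6 weeks 23 of the 48 fell in Fas-/- mice, beside 4.54% of all genes. In Fas+/+ mice 1 rose and 7 fell, a smaller share than the 22.9% of all genes called.

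Before the single-cell values, 2 features of those libraries need stating. First, their week labels ran against the bulk libraries. The genes compared were called between 6 and 3 weeks in bulk, were not members, had a unique name and had enough UMIs in cells with mesenchymal markers. Of these, 322 of 3165 (10.2%) in Fas+/+ and 80 of 1214 (6.59%) in Fas-/- mice changed in the same direction between the libraries so labelled, in those cells. Cells with profibrotic markers numbered 20 and 66 in the Fas+/+ and Fas-/- libraries labelled week 3 and 197 and 265 in those labelled week 6, whereas in bulk the mean log2 CPM of the same markers was 8.25 and 8.23 at 3 weeks and 6.22 and 7.20 at 6 weeks. Libraries are therefore named as labelled, and no direction in time is drawn from them. Second, 91 to 289 cell barcodes were shared by each pair of libraries, and values are also given without them. Of the kept cells, 350 of 603 in the naive library and 174 to 435 in the others had a barcode found elsewhere. In the naive library those barcodes had a median of 11970 UMIs against 4520 in the rest, and in the others 758 to 1134 against 6264 to 10860.

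Of 13900 barcodes, 12059 were kept, with 603 in the naive library, 2664 and 2608 in the Fas+/+ and Fas-/- libraries labelled week 3, and 3240 and 2944 in those labelled week 6. The median UMI count of kept cells was 5768 to 8896. With 1 library per condition there is no test, and the 95% exact Poisson intervals cover counting error only. Cells were put in a class by at least 3 detected markers of a list and at least 2 more than of any other list. These are rebuilt groups and not the study's clusters.

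In cells with mesenchymal markers, the members together took 34.42 UMIs per 10000 (95% interval 33.91 to 34.94) in the naive library, 45.79 (45.50 to 46.08) and 34.16 (33.85 to 34.48) in the Fas+/+ and Fas-/- libraries labelled week 3, and 38.50 (38.22 to 38.77) and 64.89 (64.58 to 65.20) in those labelled week 6. The Fas-/- library labelled week 6 was the highest, and in this sum the Fas-/- library labelled week 3 was at the naive level. By member it was not: of 39 members with at least 20 UMIs, 12 were above naive and 8 below it by the interval of the ratio. How many of all genes lay above or below naive in this way was not counted. After each cell was thinned to 3000 UMIs, the mean was 9.94, 12.7, 9.80, 10.7 and 17.9 member UMIs per cell in the same order, with 70, 245, 469, 236 and 467 shallower cells left out. Without shared barcodes, the naive and the 2 libraries labelled week 3 were at 30.01, 44.43 and 33.13, and those labelled week 6 at 38.56 and 65.11. The sum rests largely on Ifitm3, with 258861 UMIs in all, and without it the 5 values were 15.28, 23.52, 17.06, 18.42 and 37.26 in the first order.

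The log2 ratio of the Fas-/- to the Fas+/+ library was 0.75 (0.74 to 0.77) for those labelled week 6 and -0.42 (-0.44 to -0.41) for those labelled week 3. In the first pair all 41 members with at least 20 UMIs were higher in the Fas-/- library, 39 of them with an interval above 0. In the second, 2 of 40 were higher, none with an interval above 0, and 26 had an interval below 0. The share of all genes with such intervals was not counted, so these counts cannot be read as particular to the members. In bulk the median log2 fold change of Fas-/- over Fas+/+ mice was 0.58 at 3 weeks and -0.22 at 6 weeks. The single-cell pair labelled week 6 thus had the sign of the bulk libraries at 3 weeks, and the pair labelled week 3 that of the bulk libraries at 6 weeks. These signs cannot tell an exchange of the week labels from an exchange of the genotype labels. Whether labels were exchanged was not tested beyond the gene counts given above.

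The classes, named by the marker lists that define them, differed in level. Mesothelial cells were the highest of them in each library, at 44.65 UMIs per 10000 in the naive library, 68.96 and 50.53 in the Fas+/+ and Fas-/- libraries labelled week 3, and 67.52 and 83.88 in those labelled week 6. Alveolar lipofibroblasts were at 36.85, 45.05, 32.55, 38.52 and 73.25 and adventitial Col14a1 fibroblasts at 30.80, 48.46, 38.67, 42.70 and 67.77 in the same order. Vascular smooth muscle cells were the lowest of the mesenchymal classes, at 13.53, 14.62, 18.53 and 19.51 in the 4 libraries with at least 20 of them. Alveolar epithelial cells, at 10.22, 9.59 and 19.75 in the 3 libraries with enough, were lower still, except beside the vascular smooth muscle cells of the Fas-/- library labelled week 6. The rank of mesothelial cells rests in part on Ifitm3. Without it they were at 26.32 in the Fas-/- library labelled week 3, below endothelial cells at 27.37. In the Fas-/- library labelled week 6 they were at 43.94, beside 42.93 in alveolar lipofibroblasts.

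The profibrotic fibroblasts, which make the fibrillar collagens of scarring, were at 20.12 and 20.07 in the Fas+/+ and Fas-/- libraries labelled week 3, from 20 and 66 cells, and at 31.89 and 55.10 in those labelled week 6. The Fas-/- library labelled week 6 exceeded its Fas+/+ counterpart in them by 0.79 (0.76 to 0.82) on the log2 scale, and in alveolar lipofibroblasts by 0.93 (0.91 to 0.95). In pericytes the ratio was 0.18 (0.13 to 0.24), and in vascular smooth muscle cells 0.075 (-0.031 to 0.18), where the interval includes 0.

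**Figure D4:**
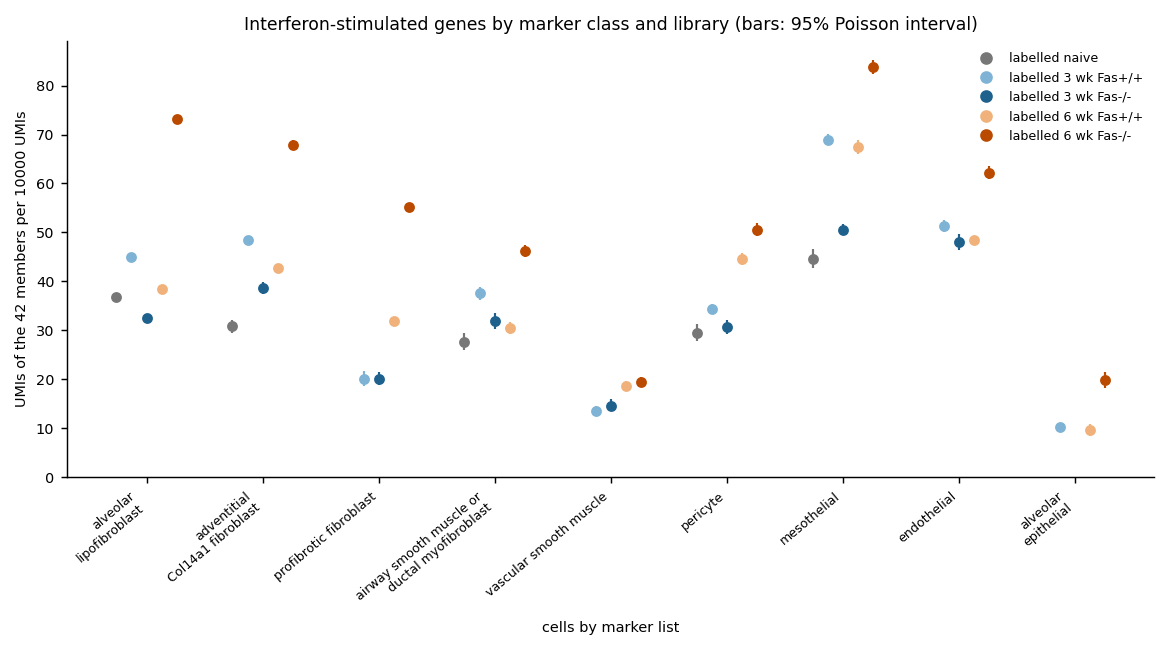
UMIs of the 42 members per 10000 UMIs (vertical axis) in cells grouped by marker list (horizontal axis), with 1 point per single-cell library coloured by its label and bars for the 95% Poisson interval. The Fas-/- library labelled week 6 is the highest in each class shown, from 19.51 in vascular smooth muscle cells to 83.88 in mesothelial cells, and classes with under 20 cells in a library have no point.

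In mesenchymal-marker cells Ifi27l2a was at 4.67 UMIs per 10000 in the naive library, 9.36 and 5.70 in the Fas+/+ and Fas-/- libraries labelled week 3, and 4.87 and 13.3 in those labelled week 6. Isg15 was at 0.276, 0.514, 0.359, 0.554 and 1.71 in the same order, and in the profibrotic fibroblasts of the Fas-/- library labelled week 6 at 3.34. Irf7 was at 0.178, 0.202, 0.131, 0.2998 and 0.594, and Ifit3 at 0.469, 0.556, 0.305, 0.435 and 1.05. Each was highest in the Fas-/- library labelled week 6, as the sum was, but Isg15 and Irf7 were lower in the Fas+/+ library labelled week 3 than in that labelled week 6, against the order of the sum. The ratio of the libraries labelled week 6 was highest for the RNA-binding effector Ifit1, at 2.02 (1.87 to 2.18) on the log2 scale, and was 1.62 (1.53 to 1.72) for Isg15, 1.45 (1.42 to 1.48) for Ifi27l2a, 0.99 (0.85 to 1.12) for Irf7 and 0.46 (0.44 to 0.48) for Ifitm3. Iigp1, a GTPase of the same response, was at 0.575, 1.05, 1.01, 1.80 and 2.51 UMIs per 10000, and Lgals3bp at 0.843, 1.22, 0.831, 1.25 and 2.04.

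Cells with endothelial markers, which the sort should have removed, had a higher share of their UMIs from most measured members. They numbered 246 and 182 in the Fas+/+ and Fas-/- libraries labelled week 3 and 1325 and 257 in those labelled week 6, and the members took 51.26, 48.03, 48.46 and 62.18 UMIs per 10000 in them. In the Fas-/- library labelled week 6 this was below the 64.89 of mesenchymal-marker cells. Per member, 30 of 40, 30 of 39, 31 of 40 and 23 of 40 in the same order had an interval above 0 for endothelial over mesenchymal cells, and 4, 3, 7 and 9 an interval below 0. The same ratio was not taken for all genes, so these counts cannot be read as particular to the members. The interval was above 0 in each library for 22 of the 39 members measured in all 4. Among these were Irf9, Stat2 and Usp18. Bst2 was at 5.09 to 7.29 in endothelial and 1.52 to 3.19 in mesenchymal cells. The oligoadenylate synthetase Oas2 was higher in endothelial cells by 2.45 to 4.36 on the log2 scale, from 17 to 145 UMIs there.

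Ifi27l2a and Ifit2 were lower in endothelial cells in all 4 libraries. Ifi27l2a was at 0.418 to 1.07 UMIs per 10000 in endothelial and 4.87 to 13.3 in mesenchymal cells, a log2 ratio of -3.64 to -3.50. In bulk Ifi27l2a was one of the 7 members that passed the test between genotypes at 3 weeks. Of the others, Stat2, Usp18 and Oasl2 were higher in endothelial cells in all 4 libraries by the interval. The ratio ran from 0.34 (-0.0098 to 0.68) to 0.76 (0.13 to 1.325) for Gbp3. It ran from -0.19 (-0.42 to 0.035) to 1.45 (0.79 to 2.06) for Irf7 and from -1.24 (-1.64 to -0.87) to 0.84 (0.32 to 1.32) for Ifit3. The part of endothelial cells in the bulk difference between genotypes was not tested.

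**Figure D5:**
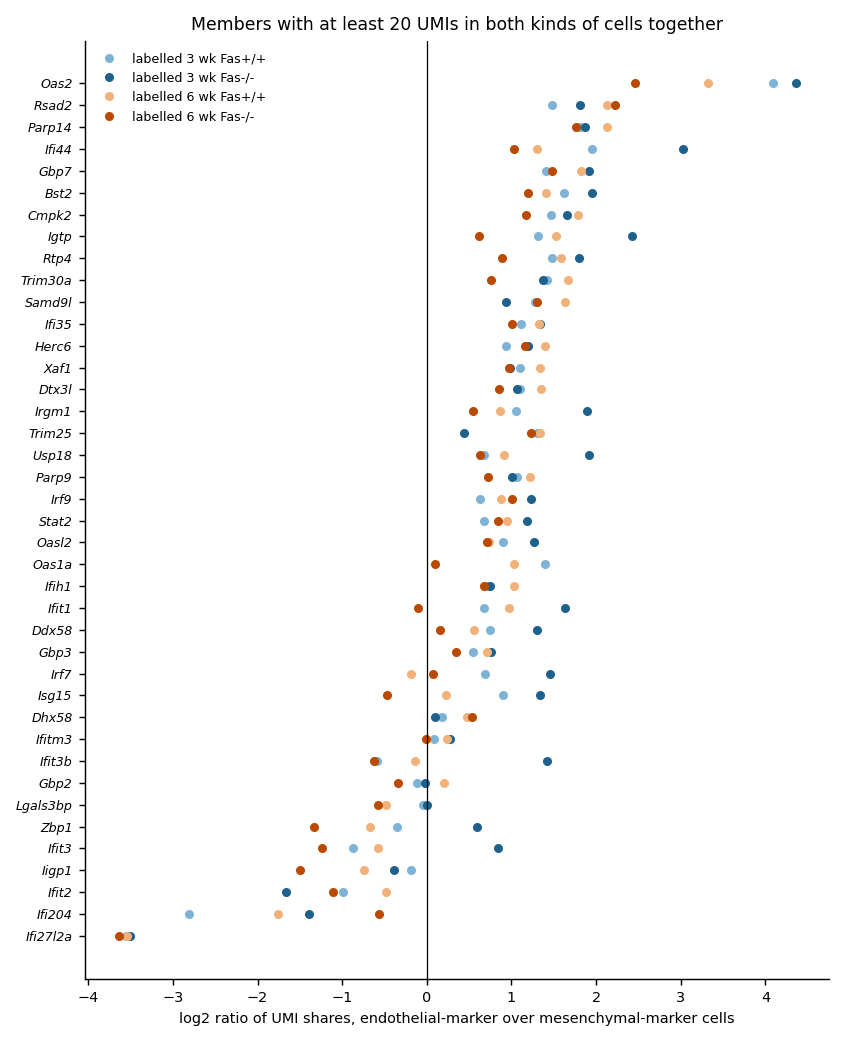
Log2 ratio of UMI shares in endothelial-marker over mesenchymal-marker cells (horizontal axis) for each member with at least 20 UMIs, with 1 point per library coloured by its label. Most members lie above 0, Oas2 farthest at 2.45 to 4.36, and Ifi27l2a lies at -3.64 to -3.50. The ratio was not taken for all genes.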

How the data were processed

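Bulk RNA-seq of 20 libraries and single-cell RNA-seq of 5 libraries of sorted Lin- mouse lung cells were used, each assigned to its group by its label. Per the study's methods, the authors used skewer for trimming, HISAT2 for alignment to GRCm38 and HTSeq for counting per Ensembl gene. The deposited values used here are these raw counts, from a stranded KAPA kit whose strand setting in counting is not given in the sources used here, and for single cells the authors' Cell Ranger UMI counts. A second deposited table, of counts the authors normalized, was not used.

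The members, pathway list and marker lists were chosen with earlier results of these data known. Counts were fitted in edgeR 4.0.16 (R 4.3.3) to all 5 groups with TMM normalization, filterByExpr (minimum count 10) and the quasi-likelihood F test. P-values were adjusted over 15773 genes. Members given in full were, per comparison with naive mice and between genotypes, the 3 with the smallest unadjusted p, and Irf7, Stat2, Irf9, Isg15 and Ifitm3. Other members are named by role or where a count turned on them, after their values were seen. An item of the pathway list is not reported here. The fit was tested on simulated data.

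Barcodes were kept if they had between 200 and 7500 genes and no more than 20% of UMIs from mitochondrial genes. No doublet caller was run and free RNA was not removed; between 40 and 380 cells per library held markers of several lists and were put in no class. Intervals were computed with scipy 1.17.1 and figures with matplotlib 3.10.9. Alternatives were RLE normalization, no filter, DESeq2 1.42.0, the compared groups alone, libraries left out, an endothelial covariate, a replicate block and, for single cells, stricter classes, a 10% mitochondrial limit and the sum without Ifitm3. The fit without barcodes shared between libraries was added after the data were seen.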

Additional observations from a re-analysis of the deposited data

Results flagged for a closer look

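Of 65 groups of 4 libraries examined, which are the 12 members given in full and the mean log2 CPM of the members, each in 5 groups, 4 held a library far from the other 3, where chance sets apart about 1 group in 20. The number set apart is thus close to what chance gives. Irf9 was at 98.51 CPM in 3-week Fas-/- replicate 4, against 70.28 to 71.40 CPM in the others. Trim30a was at 34.55 CPM in the same library, against 24.59 to 25.78 CPM. Stat2 was at 96.71 CPM in 3-week Fas+/+ replicate 1, against 73.03 to 76.69 CPM. Both of these libraries were the highest of their groups in endothelial markers and the lowest in profibrotic markers. The part of either in the values was not tested. Irf9, Trim30a and Stat2 were each higher in endothelial-marker than in mesenchymal-marker cells in all 4 single-cell libraries compared. They share this with most members, as it held for 22 of the 39 measured in all 4. Its share over all genes was not counted. Oas1a was at 5.012 CPM in 6-week Fas-/- replicate 1, against 3.074 to 3.393 CPM.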

How the results depend on the processing

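With 1 library left out in turn, the number of members called was 19 to 23 at 3 weeks and 3 to 18 at 6 weeks for Fas+/+ against naive mice, 34 to 37 and 3 to 5 for Fas-/- against naive mice, 0 to 15 at 3 weeks and 0 at 6 weeks between genotypes, 1 to 6 from 3 to 6 weeks in Fas+/+ mice (6 with the balance turned, 2 higher and 4 lower, without replicate 3 at 6 weeks), 29 to 33 in Fas-/- mice, and 0 to 16 for the genotype-by-time term. Over all genes, the number called between genotypes at 3 weeks ran from 0 to 582 with 1 library left out. With the endothelial marker level as a covariate the number of members called was 9 and 5 for Fas+/+ against naive mice at 3 and 6 weeks. It was 14 between genotypes at 3 weeks and 11 for the genotype-by-time term. The naive libraries overlapped neither Fas+/+ group in that level, so the covariate cannot be separated from those comparisons. Without the library highest in endothelial markers of each bleomycin group it was 19 between genotypes at 3 weeks. It was 10 for the genotype-by-time term, beside 250 of 15846 genes. From 3 to 6 weeks in Fas+/+ mice it was 8 (3 higher and 5 lower, so that the balance turned), beside 5863 of 15846 genes. There the share of the members called was below that of all genes. DESeq2 called 16 for Fas+/+ against naive mice at 6 weeks, 18 between genotypes at 3 weeks and 19 for the genotype-by-time term. The compared groups alone gave 4 between genotypes at 3 weeks and 1 from 3 to 6 weeks in Fas+/+ mice. No filter on low counts gave 2 for the genotype-by-time term, beside 3 of 28881 genes. The cause of these changes was not tested. Over all tested members and comparisons, 97 of 3280 fold changes had another sign with 1 library left out and 62 of 2581 under the other settings. Among those of members called in the reported fit it was 0 of 960 and 2 of 840, which are Parp14 and Trim25 for Fas+/+ against naive mice at 3 weeks with the endothelial covariate.

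With the replicate number as a block, 4 members were called for Fas+/+ against naive mice at 6 weeks, beside 754 of 15773 genes. From 3 to 6 weeks in Fas+/+ mice 2 were called, beside 3399 of 15773 genes, and the other counts of members stayed within 1.5 times. The numbers do not pair the libraries: deviations of same-numbered libraries correlated at -0.464 to 0.403 over 40 pairs of libraries.

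In single cells, in the order naive, Fas+/+ and Fas-/- labelled week 3, Fas+/+ and Fas-/- labelled week 6, the UMIs of the members per 10000 in mesenchymal-marker cells were 35.00, 46.74, 35.07, 38.82 and 65.85 with stricter classes, 35.36, 47.60, 34.97, 39.56 and 66.35 with at most 10% mitochondrial UMIs, and 15.28, 23.52, 17.06, 18.42 and 37.26 without Ifitm3. Without shared barcodes the first 3 were 30.01, 44.43 and 33.13. The Fas-/- library labelled week 6 was highest under each. Some of these shifts were hardly larger than counting error. With stricter classes, 35.00 lay just above the reported 95% interval of 33.91 to 34.94 in the naive library. In the Fas+/+ library labelled week 6, 38.82 lay just above 38.22 to 38.77. Having 1 library per condition limits the comparison.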
